A study of Mus musculus with 16 samples.

Results

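TRIM proteins share a tripartite motif, a RING finger followed by B-box domains and a coiled coil. Most of them act as ubiquitin ligases. The domain behind the coiled coil divides the family: a PRY-SPRY domain marks the members known for binding viral capsids and for tuning the innate sensors of viral RNA and DNA, and a PHD finger with a bromodomain marks the nuclear co-repressors Trim24, Trim28 and Trim33. Many of the PRY-SPRY members are themselves interferon-stimulated genes, and in the mouse several lie side by side on chromosome 7. The Trim genes were taken by symbol (Trim, a number and at most 1 letter from a to e). This rule found 68 of the 55414 named features of the untreated table and the same 68 of the 56980 features of the IFNγ table. Genes of the same architecture under other names, such as Pml, were not counted as members.

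The RNA came from KPC1199, a murine pancreatic ductal adenocarcinoma (PDAC) line derived from a spontaneous tumor of the KPC mouse, which carries a Pdx-driven Cre and a mutant Trp53 allele. All 6 groups share this background. Cells carried either a control guide (sgCtrL) or a CRISPR-Cas9 guide against Sin3B (Sin3Bsg1), and Sin3B is a scaffold of histone deacetylase complexes. The untreated experiment held 2 libraries of each genotype, and the IFNγ experiment held 3 libraries of each genotype without IFNγ and 3 after 24 h of IFNγ at 10 ng/mL. The labels give a pancreatic tumor as the source, although the cells are a cultured line. The sources used here do not say whether a genotype was a clone or a pool, nor whether replicates were separate cultures. P-values therefore measure the spread between these libraries, which may be technical.

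Sin3b itself ran from 80.3 to 95.5 CPM (counts scaled by the TMM library size) in the sgCtrL libraries and from 33.6 to 39.4 CPM in the Sin3Bsg1 libraries. Its log2 difference was -1.28 in the untreated experiment, -1.24 without IFNγ and -1.22 with IFNγ, so the transcript was lower but still present. The study reports that its edited lines were checked for knockout by western blot, amplicon sequencing or both. The RNA level does not give the level of the protein. Deposited totals per library lay between 29683181 and 32311721 counts for the untreated cells and between 18128055 and 27056903 counts for the IFNγ experiment. All 7 ductal and epithelial markers were detected in every library (summed level 3886 to 7367 TPM, reads per length scaled to a fixed library sum, over the groups). The 4 endothelial markers summed to at most 0.559 TPM. Of the 7 leukocyte markers Cd68 ran from 9.57 to 14.6 TPM and no other passed 0.0535 TPM. Of the 6 fibroblast markers Dcn, Lum and Thy1 stayed at or under 0.478 TPM, while Pdgfra reached 76.8 TPM, Pdgfrb 14.6 TPM and Acta2 6.22 TPM. The fibroblast list summed to 31.5 to 31.7 TPM in untreated sgCtrL cells against 10.0 to 11.1 TPM in untreated Sin3Bsg1 cells. It summed to 85.8 to 89.5 TPM in sgCtrL cells without IFNγ against 63.2 to 64.3 TPM with IFNγ, and to 75.2 to 79.9 TPM against 54.5 to 60.4 TPM in Sin3Bsg1 cells. These sums hide genes that went the other way. Of the 3 fibroblast markers tested, 2 were lower and none higher in untreated Sin3Bsg1 cells. In the IFNγ experiment 1 was higher and 1 lower in Sin3Bsg1 cells in each comparison, and 1 rose and 2 fell with IFNγ in each genotype. The ductal list was higher in Sin3Bsg1 than in sgCtrL libraries in each comparison. The part of these lists in the Trim differences was not tested. In such bulk RNA, fewer cells expressing a gene and less RNA per cell cannot be told apart. One library stood apart: sgCtrL with IFNγ replicate 1 differed from its 2 replicates by 23.3 and 19.5 (chi-square averaged over genes), while those 2 differed by 4.12 and all other replicate pairs by 2.40 to 9.65. Members whose calls rest on it are given with and without it. Some other members passed once it was left out, and not all of these are given.

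The first question was which Trim genes these cells express. Of the 68 members, 43 passed the filter on low counts in the IFNγ experiment and 42 of these did so in the untreated experiment, where Trim10 did not. The other 25 never exceeded 10 counts in a library. Among these, 13 stayed at 3 counts or fewer in every library, and Trim38, Trim42, Trim60, Trim61 and Trim80 had no count in any of the 16 libraries, which allows at most 3 counts per library. Of the 7 members with a COS box, which ties proteins to microtubules or the sarcomere, Trim54, Trim55, Trim63, Trim9 and Trim67 were among the 25, while Trim36 and Trim46 were tested.

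Levels between genes were compared as TPM, which corrects for gene length. In sgCtrL cells without IFNγ the highest member was Trim28, the corepressor recruited by KRAB zinc-finger proteins, at 250.5 ± 8.29 TPM (SD, n = 3). It alone made up 22.1% ± 0.652 of the summed TPM of the 68 members, which came to 1134 ± 10.1. Next came Trim44, a member without a RING finger, at 103 ± 2.30 TPM, Trim59 at 79.4 ± 1.16 TPM, Trim8 at 64.7 ± 1.52 TPM and Trim35 at 58.7 ± 2.18 TPM. The libraries of each of the first 4 lay wholly above those of the next gene, whereas Trim35 overlapped with Trim26 (57.8 ± 3.11 TPM) in sixth place. From Trim11, named after its values were seen, at 28.7 TPM down to Trim56 at 23.5 TPM, no gene was separated from its neighbor in that order. The level of Trim28 carries a limit: 67.8% of its exonic bases are also covered, on the opposite strand, by exons of Chmp2a in the GENCODE annotation of GRCm39, and the strand setting of the counting is not given in the sources used here.

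The members of the chromosome 7 block and Trim21 lay in the lower part of this order before stimulation, whereas other members tied to antiviral signaling, such as Trim26 and Trim25 (36.0 TPM), lay near the top. Trim12a read 5.83 ± 1.02 TPM, Trim12c 4.98 ± 0.556 TPM, Trim30a 2.99 ± 0.516 TPM, Trim21 2.65 ± 0.450 TPM, Trim34a 1.58 ± 0.449 TPM and Trim5 0.575 ± 0.110 TPM in sgCtrL cells without IFNγ (n = 3). After IFNγ, Trim12a read 32.6 ± 4.63 TPM and Trim21 read 24.9 ± 1.12 TPM in sgCtrL cells. By mean Trim12a then ranked eleventh of all members, but its libraries overlapped with those of Trim56 and Trim47 on either side. Some levels also differed between the 2 experiments, which no test joins. Trim14 read 10.9 and 8.70 CPM in untreated sgCtrL cells against 1.78 to 2.29 CPM in the sgCtrL cells without IFNγ, and Trim30a read 1.51 and 0.850 CPM against 4.21 to 5.88 CPM.

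**Figure D1:**
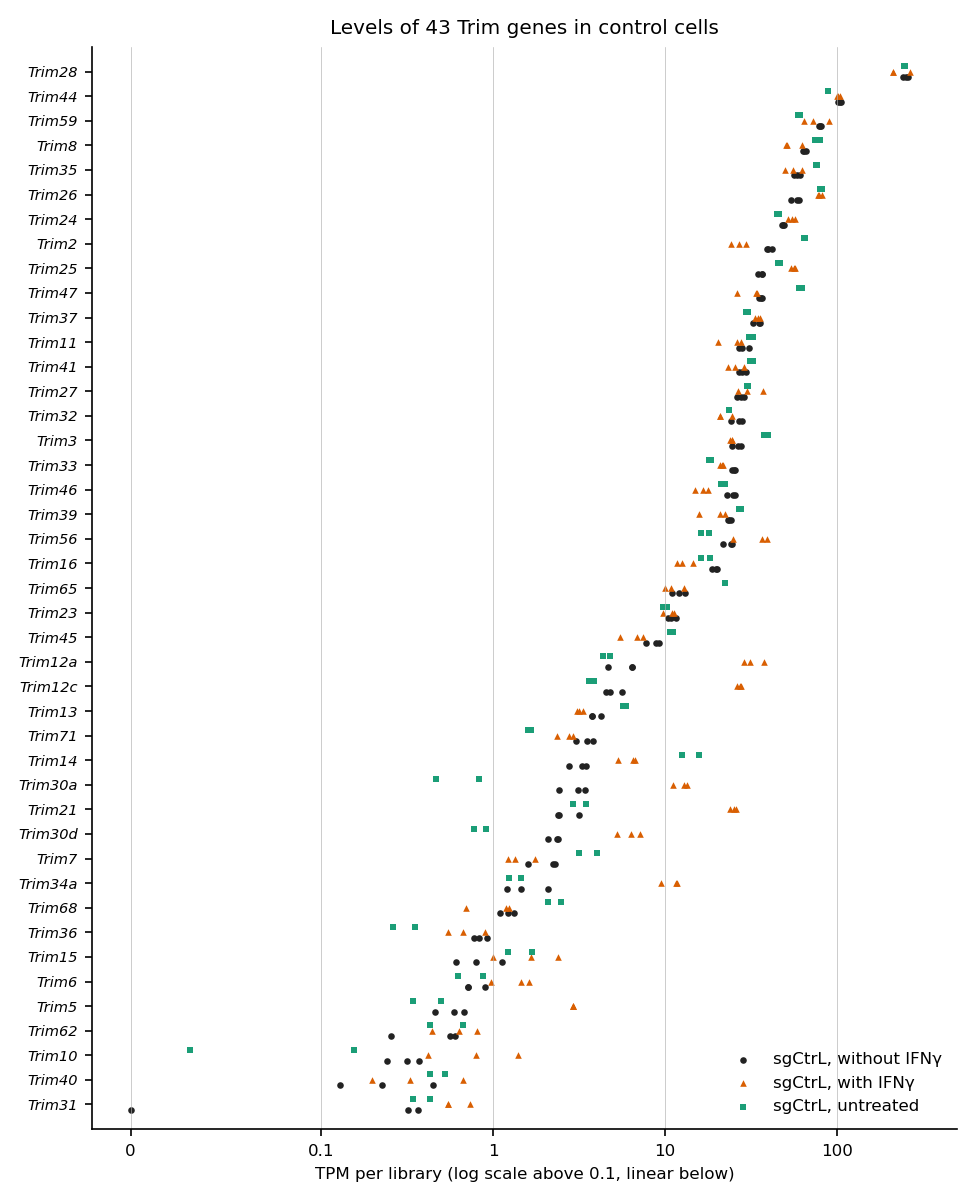
TPM (horizontal axis, logarithmic above 0.1 and linear below) of the 43 Trim genes that passed the filter in the IFNγ experiment, ordered by their mean in sgCtrL cells without IFNγ; each symbol is 1 library of sgCtrL without IFNγ (circles), with IFNγ (triangles) or untreated (squares). Trim28 leads at 250.5 TPM, and the triangles of Trim12a, Trim12c, Trim21, Trim30a, Trim34a and Trim5 lie to the right of their circles.

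The second question was which members respond to IFNγ. In sgCtrL cells 15 of the 43 members tested rose and 5 fell with IFNγ at an adjusted p under 0.05, against 15.7% of all 14913 genes that rose and 14.5% that fell. In Sin3Bsg1 cells 14 rose and 6 fell, against 16.1% and 12.3% of all genes. The members that rose thus came to 34.9% and 32.6%, and those that fell to 11.6% and 14.0%. The median log2 change of the 43 members was 0.041 in sgCtrL and 0.045 in Sin3Bsg1 cells, beside -0.00063 and 0.0052 over all genes, so the response was carried by a minority of members. A member was counted as IFNγ-responsive when it passed the test in both genotypes with a change of at least 2-fold in both. Among the 43 tested, 7 members (16.3%) met this rule, all of them higher, against 2.66% of all genes tested (396 genes) that met the same rule as higher. No member met it as lower, against 1.05% of all genes. Nor did any by DESeq2, or with an unadjusted p under 0.05 in edgeR.

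The 7 were Trim21, Trim34a, Trim12a, Trim12c, Trim5, Trim30a and Trim30d, all on chromosome 7 as placed by identifier in the GENCODE annotation of GRCm39. Of these, 6 lie within 289 kb (chr7:103868000-104157107), a block of 10 Trim genes that opens with Trim6 and ends with Trim30d, and Trim21 lies apart at chr7:102207128-102214704. Their summed level in sgCtrL cells was 20.9 ± 1.58 TPM without IFNγ and 117 ± 6.8 TPM with IFNγ (n = 3). As a share of the summed TPM of all members this was 1.84% ± 0.150 and 9.76% ± 0.689.

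Trim21, the cytosolic Fc receptor that targets antibody-coated viruses, changed most. It read 3.02, 4.09 and 3.05 CPM in sgCtrL cells without IFNγ and 34.8, 32.5 and 33.3 CPM with it. In Sin3Bsg1 cells it read 3.35, 3.91 and 4.30 CPM and then 39.3, 42.2 and 39.9 CPM. All 6 treated libraries lay far above all 6 without IFNγ. The log2 change was 3.29 ± 0.10 (SE, adjusted p = 4.99e-13) in sgCtrL and 3.40 ± 0.10 (adjusted p = 1.40e-13) in Sin3Bsg1 cells, a rise of 9.75-fold and 10.5-fold. Trim21 had no fractional count, so there was no sign that its reads were divided between features.

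Trim34a, a PRY-SPRY member next to Trim6 in the block, started lower. It read 1.35, 1.96 and 1.12 CPM in sgCtrL cells and 9.24, 11.7 and 11.3 CPM with IFNγ. In Sin3Bsg1 cells the values were 0.989, 1.39 and 1.03 CPM and then 10.8, 12.5 and 12.6 CPM. The groups did not overlap, and the log2 change was 2.83 ± 0.18 in sgCtrL and 3.39 ± 0.19 in Sin3Bsg1 cells (adjusted p = 6.17e-09 and 6.18e-10). Exons of Gm47248 on the opposite strand cover 23.1% of its exonic bases.

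Trim5, Trim12a and Trim12c are the mouse relatives of primate TRIM5, which restricts retroviral capsids. Trim12c read 5.39, 6.42 and 5.13 CPM in sgCtrL cells without IFNγ and 32.8, 31.9 and 32.1 CPM with it, a log2 change of 2.50 ± 0.10. Trim12a went from 3.13, 4.42 and 4.33 CPM to 20.4, 22.8 and 26.7 CPM, a log2 change of 2.55 ± 0.12. Trim5 went from 0.754, 1.0 and 1.12 CPM to 5.07, 5.21 and 5.09 CPM, a log2 change of 2.41 ± 0.23. In Sin3Bsg1 cells the log2 changes were 2.52 ± 0.10, 2.98 ± 0.12 and 2.18 ± 0.21 in the same order, and no treated library of either genotype overlapped with the libraries without IFNγ. The 3 genes are close copies of each other. Their counts were fractional in 10 to 11 of 12 libraries, so reads were divided between features, and how the rise is shared among the 3 is uncertain.

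Trim30a, known as a brake on Toll-like receptor signaling, and its neighbor Trim30d rose less. Trim30a read 5.33, 4.21 and 5.88 CPM in sgCtrL cells and 23.2, 20.5 and 24.0 CPM with IFNγ (log2 change 2.14 ± 0.11, adjusted p = 4.22e-10). Trim30d read 2.05, 1.84 and 2.03 CPM and then 4.77, 5.93 and 6.48 CPM (log2 change 1.54 ± 0.19, adjusted p = 1.10e-05). In Sin3Bsg1 cells the log2 changes were 2.32 ± 0.11 and 1.22 ± 0.18, again with no overlap. In 10 of 12 libraries both genes had fractional counts, and in all 10 the 2 values summed to a whole number within 0.015, so reads were split between this pair and their separate folds are uncertain.

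**Figure D2:**
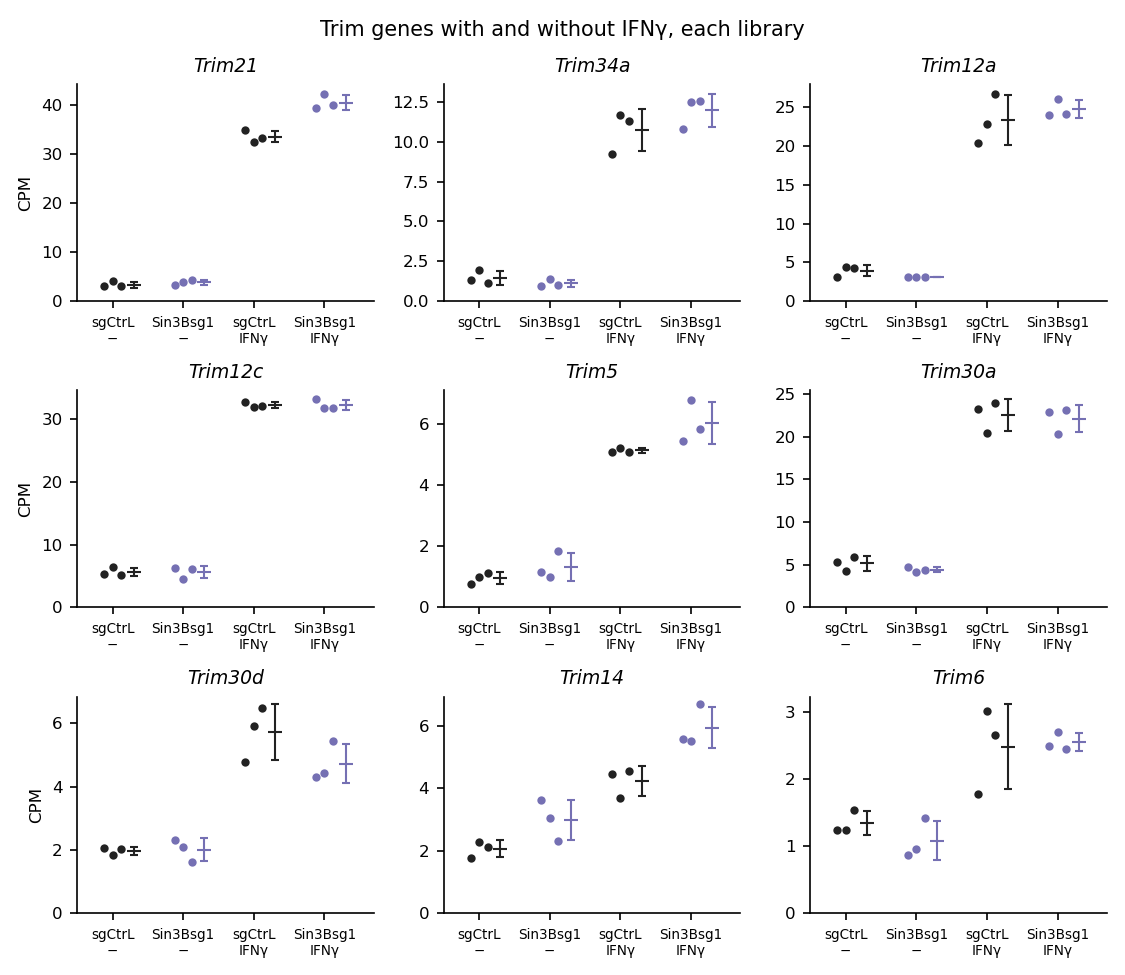
CPM in each library of the IFNγ experiment (points) with the group mean and SD (bars, n = 3) for the 7 IFNγ-responsive Trim genes and for Trim14 and Trim6, which passed the test in both genotypes but stayed under 2-fold in one; − marks cells without IFNγ. In each panel the treated libraries of a genotype lie above its libraries without IFNγ, as for Trim21 with 32.5 to 42.2 CPM against 3.02 to 4.30 CPM.

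Promoter sequences were examined because these members moved together. The RefSeq promoter table (GRCm38.p6, 250 bases before to 50 after a start) has an entry for 53 of the 68 members. These were searched on both strands for GAAANNGAA, a form of the interferon-stimulated response element (ISRE), and for TTCNNNGAA, the gamma-activated site (GAS). The ISRE letters occurred in 12 of the 53 members, and of all 27025 genes in that table, 9.76% held them. All 7 responsive members held them, against 4 of the 27 tested members with an entry that were not IFNγ-responsive and 1 of the 19 with an entry that were not tested. The GAS letters occurred in 6 of the 53, in none of the 7, and in 9.55% of all genes. A match describes these letters only and is not a test of any factor's binding, and here it was looked at after the responses were known. The matches of the 7 are printed below with 10 bases on either side, in the sense of the gene, with the matched letters in capitals, to show which are copies of one another.
Trim21: cctctgagagGAAACTGAAagtgaaattt
Trim34a: ggtttggagtTTCAGTTTCttttctctgc
Trim5: gagttgtggtTTCTGTTTCatttccagag
Trim12a: gagttgtggtTTCTGTTTCatttccagag
Trim12c: gagttgtggtTTCTGTTTCatttccagct
Trim30a: gttctttagtTTCTTTTTCtcagttcctg
Trim30d: gttctttagtTTCTTTTTCtcagttcctg
The windows lie at chr7:102565451-102565479 for Trim21, chr7:104244458-104244486 for Trim34a, chr7:104288136-104288164 for Trim5, chr7:104315466-104315494 for Trim12a, chr7:104353359-104353387 for Trim12c, chr7:104465210-104465238 for Trim30a and chr7:104507871-104507899 for Trim30d. All are on the minus strand except that of Trim34a. Trim5 and Trim12a were identical over these 29 bases and Trim12c matched them at 27. The windows of Trim30a and Trim30d were identical as well. A second match of Trim21 began 6 bases further on and overlapped the first, and a second start of Trim30a had its own match. The matched letters in these windows began between 48 bases before and 13 bases after the start.

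A further group rose in both genotypes by less than 2-fold in at least one. It held 6 members: Trim14, Trim6, Trim25, Trim56, Trim26 and Trim24. Trim14, an adapter of the mitochondrial antiviral protein MAVS, read 1.78, 2.29 and 2.14 CPM in sgCtrL cells and 4.47, 3.7 and 4.55 CPM with IFNγ. Its log2 change was 1.02 ± 0.19 in sgCtrL and 0.98 ± 0.18 in Sin3Bsg1 cells, so that it fell just short of 2-fold in the latter (1.98-fold). Exons of Nans on the opposite strand cover 22.0% of its exonic bases. Trim6, which makes the free ubiquitin chains used in type I interferon signaling, read 1.24, 1.25 and 1.55 CPM and then 1.79, 3.02 and 2.66 CPM in sgCtrL cells. The lowest treated value was that of the library that stood apart. Its log2 change was 0.90 ± 0.26 in sgCtrL cells, 1.07 ± 0.25 without that library, and 1.24 ± 0.26 in Sin3Bsg1 cells. The sgCtrL change did not pass without treated replicate 2 or without replicate 1 or 2 of the libraries without IFNγ (0.73 to 0.85, adjusted p 0.0517 to 0.0711).

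Trim25, the ubiquitin ligase of the RNA sensor RIG-I, was far more abundant and moved in a narrow range. It read 92.6, 89.3 and 93.2 CPM in sgCtrL cells and 145, 154 and 151 CPM with IFNγ (log2 change 0.71 ± 0.05, adjusted p = 1.64e-08), and the change was 0.75 ± 0.05 in Sin3Bsg1 cells. Its promoter held the ISRE letters 9 bases before the start (gcccctcctgTTCAGTTTCgattccttcc, chr11:88999384-88999412, GRCm38.p6, plus strand). The other tested members outside the 7 that held these letters were Trim26, which rose, Trim2, which fell in both genotypes, and Trim7, which fell in Sin3Bsg1 cells. Trim26, a member on chromosome 17 beside the MHC, rose by 0.54 ± 0.05 and 0.69 ± 0.05 on the log2 scale in sgCtrL and Sin3Bsg1 cells. Trim24, a co-regulator of nuclear receptors, rose by 0.25 ± 0.05 in each. Trim56, which modifies components of DNA sensing and is named here after its values were seen, read 103, 92.9 and 102 CPM in sgCtrL cells without IFNγ. With IFNγ it read 167 and 173 CPM in replicates 2 and 3 but 110 CPM in replicate 1, the library that stood apart. Its log2 change of 0.60 ± 0.12 in sgCtrL cells became 0.77 ± 0.05 without that library, beside 0.83 ± 0.12 in Sin3Bsg1 cells.

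In 1 genotype only, 3 members rose past the test, and for none of them did the interaction test find a difference between genotypes. Trim10 was called in sgCtrL cells (log2 change 1.57 ± 0.48, adjusted p = 0.0214) on counts of 7, 6 and 6 without IFNγ and 9, 23 and 33 with it. It did not pass without replicate 3 of the treated or replicate 2 or 3 of the other sgCtrL libraries (log2 change 1.09 to 1.59, adjusted p 0.0626 to 0.132). In Sin3Bsg1 cells its change was 0.89 ± 0.48. Trim15 was called in Sin3Bsg1 cells (1.08 ± 0.37, adjusted p = 0.0378) with 1.02 ± 0.40 in sgCtrL cells, on 9 to 51 counts per library. The latter became 0.68 ± 0.42 without the library that stood apart. The call was lost with a replicate block (adjusted p = 0.0581) and without replicate 1 or 3 of either Sin3Bsg1 group (0.0771 to 0.163). Trim27, named after its values were seen, read 76.5, 55.8 and 61.7 CPM with IFNγ in sgCtrL cells, the highest in the library that stood apart. It was called with that library (0.25 ± 0.09, adjusted p = 0.0485) and not without it (0.10 ± 0.06, adjusted p = 0.270).

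In both genotypes 4 members fell, none by as much as 2-fold. Trim2, a neuronal ubiquitin ligase with an NHL repeat, read 72.5, 69.1 and 69.3 CPM in sgCtrL cells and 49.0, 45.1 and 54.1 CPM with IFNγ. Its log2 change was -0.51 ± 0.06 in sgCtrL and -0.54 ± 0.06 in Sin3Bsg1 cells. Trim16, linked to autophagy of damaged lysosomes, changed by -0.52 ± 0.07 and -0.49 ± 0.07. Trim46, which organizes axonal microtubules and is named after its values were seen, changed by -0.49 ± 0.07 and -0.44 ± 0.07. Trim71, an RNA-binding NHL member and let-7 target, changed by -0.29 ± 0.10 and -0.31 ± 0.10. The calls of Trim71 were the least firm: it did not pass in 6 of 18 alternatives in sgCtrL cells (adjusted p up to 0.170, and 0.103 without the library that stood apart) and in 4 of 18 in Sin3Bsg1 cells (up to 0.115), each of which but one left out a library. Without the library that stood apart, Trim8 (-0.27 ± 0.05 and -0.17 ± 0.04) and Trim32 (-0.27 ± 0.07 and -0.20 ± 0.06, named after its values were seen) also passed as lower in both genotypes. Trim33 fell in sgCtrL cells only (-0.16 ± 0.05), and Trim7 (-0.70 ± 0.19) and Trim47 (-0.24 ± 0.08) in Sin3Bsg1 cells only, with changes of the same sign in the other genotype. Trim47 did not pass in 8 of 18 alternatives, each leaving out a library (adjusted p 0.0613 to 0.156), nor Trim33 when sgCtrL replicate 2 or 3 without IFNγ was left out (up to 0.0983).

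The remaining genes of the chromosome 7 list (12 members, 9 tested), named here after their values were seen except for Trim68, were at or near the limit of detection or did not pass the test. Trim68 read 1.19 to 1.44 CPM in sgCtrL cells without IFNγ and 0.795 to 1.43 CPM with it (log2 change -0.13 ± 0.32). Trim30c had no count in any of the 6 libraries without IFNγ and 2, 4 and 4 counts in sgCtrL and 10, 5 and 10 counts in Sin3Bsg1 libraries with IFNγ. Trim34b had 1 count in all in the 6 libraries without IFNγ, and 5, 2 and 1 counts in sgCtrL and 2, 9 and 5 counts in Sin3Bsg1 libraries with IFNγ. Trim34b shared fractional counts with Trim34a in 6 libraries, and the 2 summed to whole numbers in all 6. Trim30b stayed between 0 and 8 counts. These are too few for a fold to be given. Of the 9 tested, 8 rose in each genotype, against 15.7% of all genes in sgCtrL and 16.1% in Sin3Bsg1 cells. The median log2 change was 2.41 in sgCtrL and 2.32 in Sin3Bsg1 cells. The list was drawn up as an interferon-linked cluster and holds the responsive members given above, so these values repeat theirs.

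By role, the counts below stand beside 15.7% of all genes that rose and 14.5% that fell in sgCtrL cells, and 16.1% and 12.3% in Sin3Bsg1 cells, and no test compared the groups. Of the 16 tested members listed as acting on innate sensors or their signaling, 5 rose and none fell in each genotype, with a median log2 change of 0.14 in both. This list leaves out the members of the chromosome 7 list given above, such as Trim30a and Trim6, whatever their role in signaling. Of the 4 NHL members 2 fell and none rose in each. Of the 7 members known from p53 and growth control, 1 fell in sgCtrL and 2 fell in Sin3Bsg1 cells and none rose, close to the share over all genes for so short a list. Of the TIF1 members, Trim24 rose, Trim28 changed by -0.05 ± 0.07 in sgCtrL and -0.12 ± 0.07 in Sin3Bsg1 cells without passing the test, and Trim33 fell in sgCtrL cells. Without the library that stood apart Trim28 passed as lower in both (-0.17 ± 0.04 and -0.12 ± 0.04, adjusted p = 0.00438 and 0.0154).

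**Figure D3:**
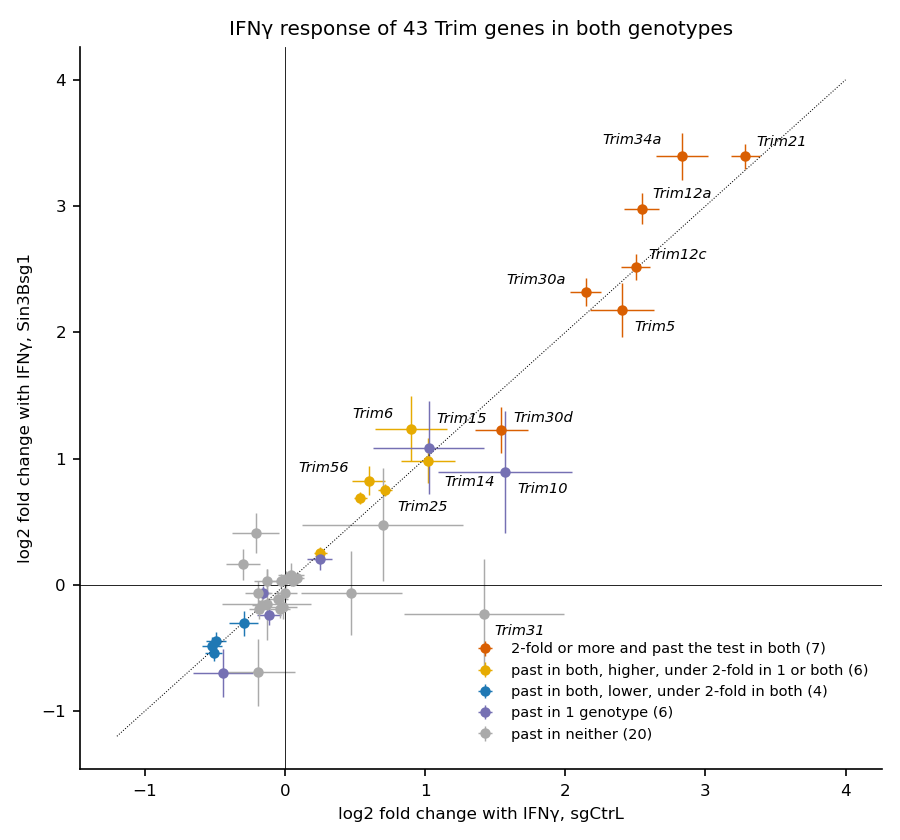
Log2 fold change with IFNγ in sgCtrL (horizontal axis) and in Sin3Bsg1 cells (vertical axis) for the 43 Trim genes tested, with standard errors; colors give the outcome of the tests and the dotted line marks equal change. The 7 responsive genes lie toward the upper right, from Trim30d at 1.54 and 1.22 to Trim21 at 3.29 and 3.40. Trim30d is not set apart from Trim10 (1.57 and 0.89) and Trim6 (0.90 and 1.24), which did not meet the rule. Trim31 lies farthest below the line on 0 to 33 counts per library.

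The comparisons of the IFNγ experiment share libraries with each other, so their values are set side by side only. The third question was whether loss of Sin3B changes this response. The interaction of genotype and IFNγ passed the threshold for no member in edgeR, against 0.0805% of all genes with a larger and 0.0335% with a smaller response in Sin3Bsg1 cells. DESeq2 also called 0. At an unadjusted p under 0.05 edgeR gave 5 of the 43 (Trim12a, Trim13, Trim26, Trim31 and Trim45). The share of all genes at that unadjusted threshold is not given here, so this count is not read as a result. The interaction of Trim12a was 0.43 ± 0.18 (adjusted p = 0.902) and that of Trim26 was 0.15 ± 0.07 (adjusted p = 0.907). For Trim21 it was 0.11 ± 0.15 and for Trim34a 0.56 ± 0.28. A p that misses the threshold does not show that the responses were equal.

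The fourth question was the effect of Sin3B loss itself. In the untreated experiment 9 of 42 members were higher (21.4%) and 8 were lower (19.0%) in Sin3Bsg1 than in sgCtrL cells, against 15.1% and 16% of all 14589 genes. Without IFNγ, in the other experiment, 8 of 43 were higher (18.6%) and 3 lower (6.98%), against 7.89% and 9.33% of all 14913 genes. With IFNγ 8 were higher (18.6%) and 2 lower (4.65%), against 8.62% and 7.90%. Median log2 differences over the members were -0.0022, 0.086 and 0.10, beside 0.0024, -0.0090 and 0.0036 over all genes. Most differences were small. Past the test and beyond 2-fold were Trim31, Trim40, Trim15 and, as lower, Trim30a in the untreated experiment, and Trim31 alone without IFNγ, all of them at 88 counts or fewer in each library compared.

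In all, 3 members passed in all 3 genotype comparisons with the same sign. Trim26 read 127 and 124 CPM in untreated sgCtrL cells against 146 and 152 CPM in Sin3Bsg1 cells. Without IFNγ it read 85.1, 80.2 and 87.8 CPM against 99.0, 98.9 and 96.1 CPM, and with IFNγ 118, 123 and 125 CPM against 160, 153 and 162 CPM. The groups did not overlap in any of the 3, and the log2 differences were 0.25 ± 0.03, 0.22 ± 0.05 and 0.37 ± 0.05.

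Trim25 followed the same pattern. It read 127 and 124 CPM against 149 and 145 CPM in the untreated experiment, and the differences in the 3 comparisons were 0.22 ± 0.03, 0.25 ± 0.05 and 0.29 ± 0.05 (adjusted p = 4.77e-05, 0.00206 and 0.000563). With IFNγ it reached 189, 184 and 178 CPM in Sin3Bsg1 cells, above all 3 sgCtrL libraries. Trim44, which has been described as stabilizing other TRIM proteins, was lower. It read 241 and 242 CPM against 221 and 221 CPM in the untreated experiment, 261 to 269 CPM against 225 to 243 CPM without IFNγ, and 271 to 280 CPM against 233 to 247 CPM with IFNγ. The differences were -0.13 ± 0.02, -0.18 ± 0.04 and -0.20 ± 0.04, and the second did not pass without Sin3Bsg1 replicate 1 (adjusted p = 0.0603).

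The members beside Trim26 on chromosome 17 include several low-count genes. Trim31, linked to MAVS aggregation and named after its values were seen, had 0, 8 and 7 counts in sgCtrL and 22, 33 and 27 in Sin3Bsg1 libraries without IFNγ (log2 difference 2.21 ± 0.54, adjusted p = 0.00942). In the untreated experiment it had 14 and 11 against 37 and 34 counts (1.41 ± 0.42, adjusted p = 0.0168), a call lost by DESeq2 and without any 1 of the 4 libraries (adjusted p 0.0561 to 0.115). With IFNγ its difference was 0.55 ± 0.47 and did not pass. Trim40, also named after its values were seen, passed in the untreated experiment (1.35 ± 0.40) on 16 and 13 against 45 and 34 counts, but not by DESeq2 or without Sin3Bsg1 replicate 1 or either sgCtrL replicate (adjusted p 0.0503 to 0.145), beside 1.32 ± 0.54 and 1.10 ± 0.48 in the other comparisons. Trim15, a regulator of focal adhesions, read 1.44 and 1.05 CPM against 2.74 and 2.82 CPM in that experiment (1.15 ± 0.26, adjusted p = 0.00317). Trim10 did not pass in either genotype comparison of the IFNγ experiment.

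Trim7, a glycogenin-binding member, was higher in Sin3Bsg1 cells in the IFNγ experiment. It read 1.56, 2.29 and 2.19 CPM against 3.92, 3.74 and 4.25 CPM without IFNγ (0.97 ± 0.20, adjusted p = 0.00249). With IFNγ it read 1.39, 1.28 and 1.80 CPM against 2.46, 2.46 and 2.40 CPM (0.71 ± 0.21, adjusted p = 0.0272), or 0.69 ± 0.24 with an adjusted p of 0.0505 without the library that stood apart, and that call was lost in 7 of 18 alternatives in all (adjusted p up to 0.0987). In the untreated experiment the difference was 0.46 ± 0.17 (adjusted p = 0.0567). Trim16 (0.26 ± 0.07 and 0.30 ± 0.07) and Trim35 (0.23 ± 0.06 and 0.27 ± 0.06) were higher in both comparisons of the IFNγ experiment. Each of the 4 differences failed to pass in 1 to 4 of 18 alternatives (adjusted p up to 0.0833). The untreated differences were 0.05 ± 0.07 and -0.03 ± 0.03. Trim65, a ligase of the RNA sensor MDA5, was higher without IFNγ (0.34 ± 0.10) and in the untreated experiment (0.20 ± 0.06). Neither call of Trim65 was firm: the first was lost when replicate 1 or 2 of either genotype was left out (adjusted p 0.0739 to 0.124), the other by DESeq2 and without Sin3Bsg1 replicate 2 or either sgCtrL replicate (0.0540 to 0.209), where the difference was as little as 0.13.

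Trim71 was higher by 0.78 ± 0.11 in untreated Sin3Bsg1 cells, with 7.55 and 7.21 CPM against 13.3 and 12 CPM, and by 0.30 ± 0.10 without IFNγ. The latter did not pass by DESeq2 or in 7 alternatives that left out a library, any of the 3 Sin3Bsg1 libraries without IFNγ included (adjusted p 0.0502 to 0.204). Trim14 was higher by 0.54 ± 0.11 in the untreated experiment, with 10.9 and 8.70 CPM against 15.0 and 13.5 CPM. Its differences of 0.53 ± 0.20 without and 0.49 ± 0.17 with IFNγ did not pass. Trim13, a ligase of the endoplasmic reticulum, passed with IFNγ alone, with 2.29, 2.53 and 2.34 CPM against 3.84, 3.51 and 4.33 CPM (0.70 ± 0.16, adjusted p = 0.00697). Trim45 was lower without IFNγ (-0.37 ± 0.12, adjusted p = 0.0479), a call lost in 13 of 18 alternatives, among them DESeq2, its size factors, no filter on low counts and the replicate block (adjusted p 0.0507 to 0.158).

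Among the falls of the untreated experiment, Trim47 read 67.0 and 64.8 CPM against 45.8 and 45.9 CPM (-0.52 ± 0.04, adjusted p = 1.55e-07) and Trim2 119 and 122 CPM against 94.7 and 98.7 CPM (-0.32 ± 0.04). Neither passed in the IFNγ experiment, where Trim2 differed by -0.02 ± 0.06 and -0.05 ± 0.06 and Trim47 by 0.11 ± 0.09 and -0.02 ± 0.09. Trim30a was lower by 1.3 ± 0.44 on the log2 scale, with 1.51 and 0.850 CPM against 0.405 and 0.550 CPM, and Trim12c differed by -0.51 ± 0.18, with 4.37 and 4.66 CPM against 3.14 and 3.17 CPM. Both had adjusted p-values close to the threshold (0.0330 and 0.0393), and DESeq2 called neither. Trim12c did not pass without any 1 of the 4 libraries (adjusted p up to 0.137), nor Trim30a without replicate 1 of either genotype, where its difference came to as little as -0.83 (adjusted p up to 0.388).

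Of the IFNγ-responsive members Trim21 alone differed between genotypes with IFNγ. It read 34.8, 32.5 and 33.3 CPM in sgCtrL against 39.3, 42.2 and 39.9 CPM in Sin3Bsg1 cells, without overlap (0.27 ± 0.08, adjusted p = 0.0241, and 0.31 ± 0.08 without the library that stood apart). The call was lost when replicate 2 or 3 of either treated group was left out (0.24 to 0.28, adjusted p 0.0535 to 0.110). Its difference without IFNγ was 0.16 ± 0.13 and did not pass. None of the 7 passed without IFNγ. In the untreated experiment Trim30a and Trim12c were lower, as given above.

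The nuclear TIF1 members did not move as one. Trim24 was lower without and with IFNγ (-0.21 ± 0.05 in both, adjusted p = 0.00624 and 0.00564), with 87.6 to 92.0 CPM against 74.6 to 81.1 CPM and 103 to 111 CPM against 89.2 to 93.6 CPM, and by -0.09 ± 0.04 in the untreated experiment without passing. Trim33, the ligase of SMAD4, was higher in the untreated experiment (0.18 ± 0.04) and with IFNγ (0.18 ± 0.05), the latter not past the test without Sin3Bsg1 replicate 1 or when only those groups were fitted (adjusted p 0.0796 to 0.0873). Trim28 was lower in the untreated experiment, with 392 and 390 CPM against 358 and 360 CPM (-0.12 ± 0.02, adjusted p = 0.000288), and differed by 0.11 ± 0.07 without and 0.04 ± 0.07 with IFNγ. Without the library that stood apart these became 0.12 ± 0.04 and 0.16 ± 0.04, both past the test as higher (adjusted p = 0.0308 and 0.00962), the sign opposite to that of the untreated experiment. Trim66, the remaining member, never exceeded 8 counts. Setdb1, the histone methyltransferase that works with Trim28, was lower in Sin3Bsg1 cells in all 3 comparisons (-0.23 ± 0.03, -0.40 ± 0.05 and -0.26 ± 0.05), and of 10 listed partners of the TIF1 proteins 9, 3 and 4 were lower and none higher, where 16%, 9.33% and 7.90% of all genes were lower.

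**Figure D4:**
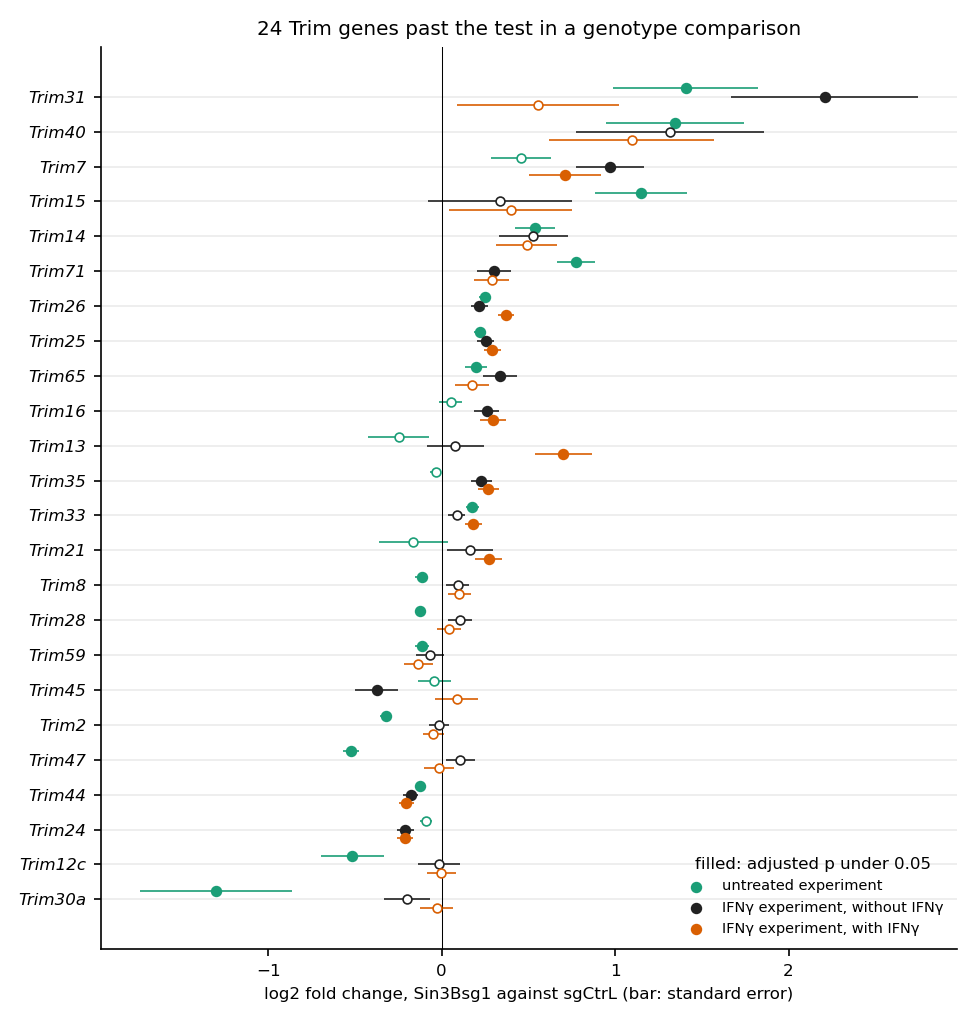
Log2 fold change of Sin3Bsg1 against sgCtrL with its standard error for untreated cells and, within the IFNγ experiment, for cells without and with IFNγ, for the 24 Trim genes that passed the test in at least 1 of these comparisons (filled symbols: adjusted p under 0.05). Trim25, Trim26 and Trim44 are filled in all 3, and the symbols of Trim47 and Trim30a in the untreated experiment lie apart from those of the IFNγ experiment.

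Genes around the family gave the setting. All 6 control genes of the IFNγ pathway rose in both genotypes, with a median log2 change of 6.58 in sgCtrL and 6.23 in Sin3Bsg1 cells. For substrates and partners in nucleic acid sensing 17 symbols were listed, some of them old and new names of the same gene, such as Ddx58 and Rigi. Of these 12 were tested, and 6 rose and none fell with IFNγ in each genotype, where 15.7% and 16.1% of all genes rose and 14.5% and 12.3% fell. Ifih1, which encodes the sensor MDA5, rose by 2.80 ± 0.09 in sgCtrL cells and Ddx58, which encodes RIG-I, by 1.98 ± 0.07. Sting1, the adapter of DNA sensing, was lower in Sin3Bsg1 cells in all 3 genotype comparisons (-1.01 ± 0.06, -0.67 ± 0.06 and -0.53 ± 0.06). Of the 7 listed genes of tripartite or related architecture under other names 3 were tested. Pml, the scaffold of nuclear bodies, rose with IFNγ by 0.47 ± 0.07 in sgCtrL and 0.57 ± 0.07 in Sin3Bsg1 cells.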

How the data were processed

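The 16 RNA-seq libraries form 2 experiments. For each experiment the authors deposited one matrix of estimated counts, not normalized and not always whole. The methods of the study name HISAT2 on mm9 with featureCounts, whereas the submitters' processing notes list fastp, HISAT2, StringTie, DESeq2 and mm39. Versions and the strand setting are not given in the sources used here. The mean columns (2 and 4) were not used. Control columns are named after a lacZ guide. They were read as sgCtrL, since Sin3Bsg1 is the only other guide. Among the untreated features, 324 unnamed loci, 0.615 to 0.677% of the counts, were left out of library sizes and tests.

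Estimated counts were rounded. Each table was fitted apart with edgeR 4.0.16 in R 4.3.3 (TMM, filterByExpr, a mean per group, glmQLFit and glmQLFTest, two-sided), with Benjamini-Hochberg adjustment over all genes tested and a threshold of 0.05. Each standard error was taken as the size of the log2 change divided by the square root of F. CPM use TMM library sizes, and TPM use the deposited gene lengths. Each replicate pair was compared by a chi-square value averaged over genes, for which no p-value was computed. By this value, 2.40 or more, no pair agreed within sampling noise. The floor of detection was set at 3 counts per library and covers counting error only. Scripts were tested on simulated data. Sequences are from RefSeq (GRCm38.p6) and positions from GENCODE on GRCm39, by identifier.

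The members, the lists and the tests were chosen with earlier results of these data known. Named were members past the test and 2-fold in an IFNγ comparison or past the interaction, the 5 largest rises and falls past the test with a mean of at least 1 CPM in each genotype comparison, tested members of the chromosome 7 and TIF1 lists, and the 5 highest by TPM. Trim11, Trim27, Trim31, Trim32, Trim36, Trim40, Trim46, Trim56 and members that were not tested were named after their values were seen. Alternatives were DESeq2 1.42.0, its size factors, other filters on low counts, a replicate block, other thresholds, the 2 groups alone and leaving out each library, and, added after seeing the data, keeping the unnamed loci. Some items are not reported here.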

Additional observations from a re-analysis of the deposited data

Results flagged for a closer look

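In groups of 2 or 3 libraries no single library can be tested as an outlier. No member passed the interaction of genotype and IFNγ, and its lowest adjusted p over the members was 0.816 (edgeR). Some members were listed because every library of one comparison moved one way and every library of another moved the opposite way. Between the untreated experiment and the comparison without IFNγ, which no test joins, the log2 differences of Sin3Bsg1 against sgCtrL were -0.12 and 0.11 for Trim28, -0.52 and 0.11 for Trim47, 0.0895 and -0.13 for Trim56, and -0.11 and 0.0923 for Trim8. Trim13 differed by -0.25 in the untreated experiment and by 0.70 with IFNγ. These differences between experiments were not tested. Without the library that stood apart, Trim8 passed as higher in Sin3Bsg1 cells with IFNγ (0.21 ± 0.05, adjusted p = 0.00519, edgeR). With all libraries that difference was 0.10 (adjusted p = 0.349). With IFNγ, Trim13 changed by -0.21 in sgCtrL and 0.41 in Sin3Bsg1 cells, and Trim45 by -0.30 and 0.16. Here the difference was tested as the interaction, with adjusted p of 0.816 for Trim13 and 0.819 for Trim45.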

How the results depend on the processing

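The 7 IFNγ-responsive members were the same genes under every alternative run. With 1 library left out 7 to 8 were counted (Trim6, Trim14 or Trim15 added). There were 9 without a filter on low counts (Trim15 and Trim30c added) and 11 when 1.5-fold sufficed. No share over all genes stands beside the counts in this section, so they show only how the calls depend on the processing. Of 78 differences past the test, 52 passed under every alternative and none reversed sign, in 1264 values. In the untreated experiment the count of 17 members became 11 (6 higher, 5 lower) by DESeq2 and 9 (6 and 3) at an unadjusted p under 0.05 with 1.3-fold, and 12 to 14 without 1 library. Without IFNγ the genotype count of 11 became 5 (all higher) at the unadjusted threshold with 1.3-fold and 6 to 13 without 1 library, with 7 and 6 when Sin3Bsg1 replicate 1 or 2 was left out. With IFNγ the count of 10 became 6 (4 and 2) when only those groups were fitted, 5 (all higher) at the unadjusted threshold with 1.3-fold, and 7 to 11 without 1 library. The interaction gave 4 members (3 and 1) at that threshold and 0 to 0 without 1 library. The responses gave 15 to 22 members in sgCtrL and 17 to 26 in Sin3Bsg1 cells without 1 library, against 20 in each. The causes were not tested. Same-numbered replicates correlated at -0.0288 to 0.119. In groups of 2 or 3 libraries this cannot show whether same-numbered samples were paired. A replicate block gave 18, 10, 12, 21, 19 and 0 members and 7 responsive ones. Keeping the unnamed loci, chosen after seeing the data, moved no count past 1.5 times. Of the 26 calls lost under some alternative, 18 were genotype differences and 8 were responses to IFNγ. The 25 members at 10 counts or fewer were too low to test.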
